A study of Mus musculus with 28 samples.

Results

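Corticosterone was given to DC2 cells for 3 days, and 4 libraries from the end of that treatment were compared with 4 libraries of untreated cells from day 0, across 13128 genes. DC2 is an immortalized mouse epithelial line made from the distal caput epididymis, part of the duct in which sperm mature after leaving the testis. The 8 libraries were taken by their labels, as every library marked corticosterone at day 3 (replicates 1, 4, 5 and 6) or vehicle at day 0 (replicates 3, 4, 5 and 6), from 28 libraries in 7 groups. At confluence the treated cultures received the hormone at 500 ng/ml, dissolved in ethanol (0.1%), and were collected when the medium was changed at day 3. The day 0 cultures had received neither hormone nor ethanol, although their label reads vehicle. Both groups grew on rat tail collagen in Iscove's medium containing fetal bovine serum, and mRNA libraries were made from 500 ng of RNA with a kit that keeps the strand. Hormone, ethanol and 3 days of further culture therefore differ together between the groups, and their parts cannot be told apart within this comparison alone. For that reason the 4 ethanol libraries of day 3 (vehicle replicates 3, 4, 5 and 6) are given beside the results, and the difference between the treated and ethanol libraries of day 3 is the test of whether the changes from day 0 differed. DC2 is a single line that divides in culture, and nothing in the labels tells if each replicate was its own culture. The p-values and standard errors therefore rest only on a spread between libraries, which may be technical. That spread was pooled within groups over all 28 libraries and not taken from the compared libraries alone.

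Corticosterone is the main glucocorticoid of rodents. It enters cells and binds the glucocorticoid receptor, encoded by Nr3c1, which is held by heat shock protein chaperones until the hormone arrives and then moves to the nucleus, where it binds DNA at short palindromic elements and also restrains factors such as AP-1. Glucocorticoid-responsive genes are known for roles in metabolism, stress resistance, the clock and the damping of inflammation, and the epididymal epithelium is known for secreting proteins and moving water, ions and vesicles into the lumen that surrounds sperm.

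Expression is given as log2 CPM, the log2 of a count after scaling by library size, and a change is the difference of group means on that scale. Each change is given ± its standard error with n = 4 libraries per group, and a gene is called when its limma p, adjusted by Benjamini-Hochberg over all genes tested, is under 0.05. Values of the 4 libraries of a group are listed by replicate, in the order 3, 4, 5 and 6 at day 0 and 1, 4, 5 and 6 with corticosterone. Taken back from the log, all entries of a library summed to 1050032 to 1059931 CPM at day 0 and 982468 to 1029702 with corticosterone. The root mean square log2 distance between libraries was 0.351 to 0.394 within day 0 and 1.113 to 1.200 between day 0 and corticosterone day 3. Corticosterone replicate 4 stood apart: it lay 0.536 to 0.604 from the other treated libraries, which lay 0.345 to 0.426 from each other, and an estimate of library weights gave it 0.08. The median gene-wise SD was 0.091 at day 0 and 0.181 with corticosterone, a difference between groups that the pooled standard errors do not carry. Mitochondrially encoded genes took 3.23 to 3.35% at day 0, 5.19 to 5.46% with ethanol at day 3 and 6.59 to 7.44% of CPM with corticosterone, and the part of this share in the results was not tested.

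From day 0 to corticosterone day 3, 5194 of 13128 genes (39.6%) rose and 4843 (36.9%) fell, so that a call in itself singles out little and list counts are read against these shares. In 4335 genes (33%) every treated library was above every day 0 library, and in 4103 (31.3%) every one was below. At least 2-fold changes were fewer, with 1770 genes higher (13.5%) and 1330 lower (10.1%). Large rises outnumbered large falls: 216 genes rose and 71 fell at least 8-fold, and 40 rose and 8 fell at least 32-fold. More genes lay below 0 log2 CPM in the day 0 libraries (876 to 974) than in the treated libraries (578 to 705). Fold sizes of such low genes depend on the prior count, and the part of this in the large rises was not tested. The median change over all genes was 0.03, and the median size of a change was 0.51. With ethanol for the same 3 days, 4789 genes rose (36.5%) and 4294 fell (32.7%), but 1 gene rose and 1 fell at least 32-fold. Treated and ethanol libraries of day 3 differed in 3065 genes that were higher (23.3%) and 3364 that were lower (25.6%) with corticosterone. These comparisons share libraries, so their values are set side by side and not related to each other. All genes in the table exceeded 0 log2 CPM in at least 4 libraries, and a gene that met this only through its treated libraries had to differ from day 0.

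**Figure D1:**
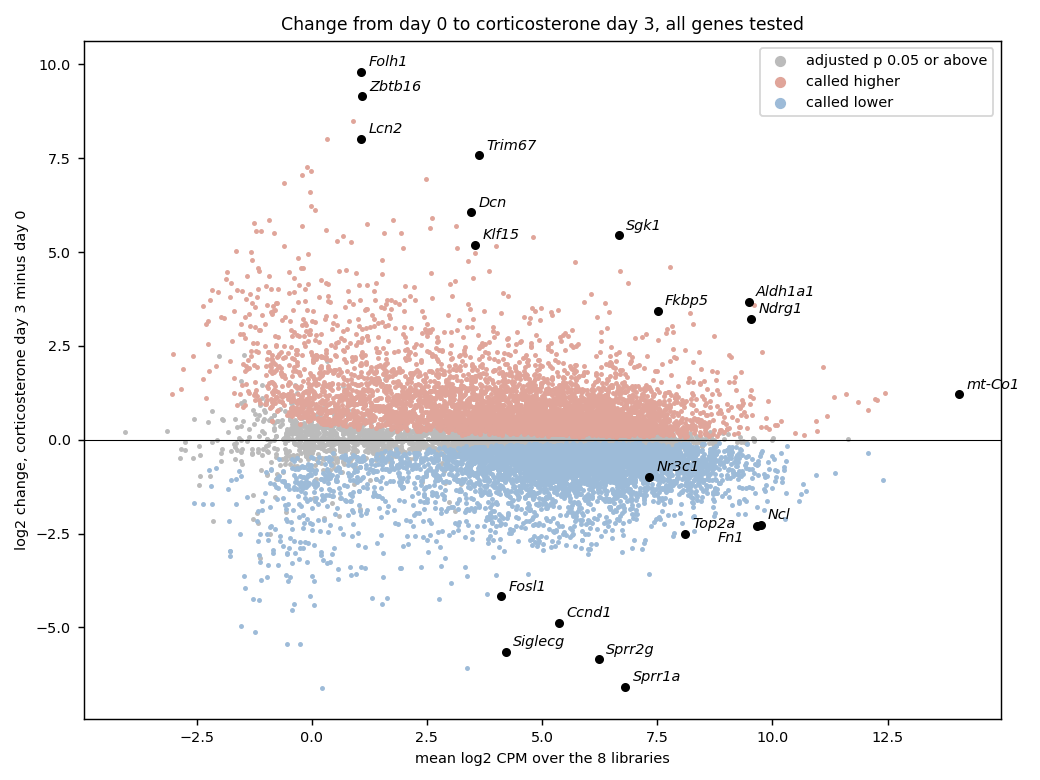
Each point is a gene, with its mean log2 CPM over the 8 libraries on the x axis and its log2 change from day 0 to corticosterone day 3 on the y axis, coloured by whether limma called it higher, lower or neither. Folh1, at 9.81, and Zbtb16, at 9.14, stand highest, and the largest falls among well measured genes are those of Sprr1a (-6.57) and Sprr2g (-5.84).

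The receptor gene and the machinery around it were examined first. Nr3c1 stood at 7.87, 7.78, 7.81 and 7.84 log2 CPM at day 0 and at 6.97, 6.36, 7.13 and 6.89 with corticosterone. Every treated library was below every day 0 library, with replicate 4 the lowest, and the transcript fell by 0.99 ± 0.10 (limma adjusted p = 1.7e-09), or by 0.83 without that library. With ethanol it rose by 0.27, and the treated libraries of day 3 were lower than the ethanol libraries by 1.26 (limma adjusted p = 8.3e-11). Nr3c2, the mineralocorticoid receptor gene, rose by 1.59 ± 0.27 and by 1.67 with ethanol. Hsd11b2, whose enzyme inactivates corticosterone, was at 0.57, 0.29, 0.06 and 0.73 log2 CPM at day 0 and at 1.50, 1.66, 1.55 and 1.51 with corticosterone. All treated libraries were above day 0, the rise being 1.14 ± 0.16 (limma adjusted p = 5.1e-07), and ethanol cells rose by 1.60. On the log2(CPM + 1) scale the rise of Hsd11b2 was 0.75.

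Of 15 measured genes of receptor machinery (16 listed), 7 rose and 8 fell, beside 39.6% and 36.9% of all genes, and the median change was -0.20. Those that fell were Nr3c1 and the chaperones and cochaperones of the receptor complex. Hsp90ab1, an HSP90 chaperone that holds the receptor in its hormone-binding state, was at 11.34 to 11.46 log2 CPM at day 0 and 9.69 to 9.81 with corticosterone. No library of either group reached the other, and the fall of 1.64 ± 0.05 (limma adjusted p = 1.5e-19) was larger than the 1.21 by which it fell with ethanol. Hsp90aa1 fell by 1.32 ± 0.05, Stip1, which hands clients from HSP70 to HSP90, fell by 1.20 ± 0.05, and Ptges3, the p23 cochaperone, fell by 1.11 ± 0.06. The coregulator genes Ncoa1, Ncoa2 and Ncor1 rose by 0.89, 0.54 and 0.52.

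Textbook targets of the receptor moved together. Of 30 measured targets (34 listed), 27 rose and 2 fell, 23 of them rose at least 2-fold, and the median change was 1.92 against 0.03 over all genes. This list was chosen with earlier results of these data known. The same targets had a median change of 0.40 with ethanol, with 17 higher and 4 lower, and 25 of 30 were higher in treated than in ethanol libraries at day 3. Fkbp5, a cochaperone that limits the receptor's own hormone binding, stood at 5.77, 5.82, 5.71 and 5.86 log2 CPM at day 0 and at 9.26, 8.97, 9.31 and 9.37 with corticosterone. All treated libraries were over 3 units higher, with replicate 4 the lowest of them. The rise was 3.44 ± 0.12, or 10.8-fold (limma adjusted p = 5.4e-19), against 0.39 with ethanol. Tsc22d3, the leucine zipper protein GILZ that restrains inflammatory factors, went from 4.03, 4.22, 3.89 and 4.17 to 7.76, 7.99, 7.68 and 7.58. No library overlapped, and the rise was 3.68 ± 0.14 (limma adjusted p = 3.2e-18) against 0.98 with ethanol.

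Sgk1, a serum- and glucocorticoid-regulated kinase that raises sodium transport, was at 4.00, 3.74, 3.74 and 4.25 log2 CPM at day 0 and at 9.47, 9.19, 9.43 and 9.45 with corticosterone. The treated libraries were well above day 0, and the rise was 5.45 ± 0.28, or 43.8-fold (limma adjusted p = 1.8e-15). Ethanol libraries moved the other way, to a mean of 3.25, a fall of 0.68. Scnn1a, the alpha subunit of the epithelial sodium channel that this kinase acts on, rose by 2.99, from a mean of 0.50 to 3.49. Klf9, a Krüppel-like repressor, went from 4.52, 4.43, 4.52 and 4.58 to 7.20, 6.77, 7.14 and 7.16, a rise of 2.55 ± 0.10. Replicate 4 was again the lowest treated library and still above every day 0 library. Glul, which makes glutamine, rose by 3.88, and Pdk4, which turns pyruvate away from the mitochondrion, rose by 3.52 ± 0.17, from 2.80 to 3.25 log2 CPM at day 0 to 6.41 to 6.69.

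The exceptions in the list had their own values. Anxa1, a mediator of anti-inflammatory action, fell by 0.96, and Acsl1, an acyl-CoA synthetase, fell by 0.31. Cdkn1c, an inhibitor of cyclin-dependent kinases, was not called, at -0.04 (limma adjusted p = 0.906). Dusp1, a MAP kinase phosphatase, was at 3.72, 3.77, 3.82 and 3.89 at day 0 and 4.46, 4.59, 4.47 and 4.42 with corticosterone. The groups did not overlap, and its rise of 0.69 ± 0.07 (limma adjusted p = 2.3e-09) stood beside 0.77 with ethanol, the difference between treated and ethanol libraries being -0.08 (limma adjusted p = 0.388).

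The 15 largest rises among genes with a mean of at least 1 log2 CPM were led by genes close to the lowest value of the table, -4.15, at day 0. Folh1, the folate hydrolase also called prostate-specific membrane antigen, was at -3.52, -4.15, -4.15 and -3.49 log2 CPM at day 0 and at 6.04, 5.87, 5.95 and 6.05 with corticosterone. In 2 of the 4 day 0 libraries it stood at the lowest value, so its rise of 9.81 ± 0.47 (limma adjusted p = 3.4e-16) depends on the prior count in the deposited values, and on the log2(CPM + 1) scale it was 5.90. Ethanol libraries stayed low, at a mean of -3.49. Zbtb16, a zinc finger repressor known to respond to glucocorticoids, went from -3.19, -4.15, -3.02 and -3.56 to 5.94, 4.99, 5.75 and 5.97. Treated libraries were far above day 0, with replicate 4 the lowest, and the rise was 9.14 ± 0.35, or 5.56 on the log2(CPM + 1) scale. Lcn2, the siderophore-binding lipocalin 2, went from -3.15, -3.33, -3.22 and -2.07 to 5.02, 5.33, 5.00 and 4.96. Day 0 replicate 6 was the highest of the untreated libraries, and the rise was 8.02 ± 0.23 (limma adjusted p = 1.3e-20), or 4.93 on the log2(CPM + 1) scale. Lcn2 also rose with ethanol, by 3.63, and was 4.39 higher again with corticosterone (limma adjusted p = 3.7e-14).

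The promoters of Folh1 and Lcn2 are shown because both genes were among the largest rises. A further reason is that each holds the inner letters of the 2 arms of a glucocorticoid response element within the window searched. The outer letters of the arms were not searched. The window ran from 250 bases before to 30 bases after the RefSeq start (GRCm38.p6), and the letters searched were ACANNNTGT, which read the same on both strands. They occur in 6.42% of 32851 RefSeq promoters, in 4.11% of 12887 promoters of tested genes and in 8 of 39 promoters (20.5%) of 25 matched receptor target genes, and a match is a description of letters only. Capitals mark the match, which begins 196 bases before the start in Folh1 (chr7:86775835-86776114, minus strand) and 152 bases before it in Lcn2 (chr2:32387710-32387989, minus strand).
Folh1: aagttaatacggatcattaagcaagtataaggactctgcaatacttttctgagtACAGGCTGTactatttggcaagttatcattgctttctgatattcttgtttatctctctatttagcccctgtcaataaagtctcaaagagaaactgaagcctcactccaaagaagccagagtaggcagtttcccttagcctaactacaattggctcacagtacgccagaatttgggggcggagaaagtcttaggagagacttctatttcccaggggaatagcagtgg
Lcn2: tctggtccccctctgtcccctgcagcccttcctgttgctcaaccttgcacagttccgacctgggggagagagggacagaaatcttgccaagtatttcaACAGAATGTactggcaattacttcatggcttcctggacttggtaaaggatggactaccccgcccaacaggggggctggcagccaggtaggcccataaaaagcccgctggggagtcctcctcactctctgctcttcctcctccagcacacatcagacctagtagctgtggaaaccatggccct

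Genes further above the lowest value at day 0 also rose strongly. Of those given first, Trim67, Ifi207 and Gsta3 still had day 0 means below 0 log2 CPM. The rises of these genes were smaller on the log2(CPM + 1) scale, so their sizes given here depend in part on the prior count. Trim67, a tripartite motif protein, went from -0.06, -0.23, -0.10 and -0.27 log2 CPM to 7.55, 7.24, 7.36 and 7.51, a rise of 7.58 ± 0.10, or 192-fold (limma adjusted p = 3.8e-27). All 4 treated libraries were more than 7 units above day 0, and ethanol libraries lay between, at 2.28 to 2.65. Ifi207, a member of the interferon-inducible p200 family, went from -0.98, -1.45, -0.48 and -1.02 to 6.02, 5.87, 5.81 and 6.1, a rise of 6.93 ± 0.15. Gsta3, a glutathione transferase of the alpha class, went from -0.30, -0.36, 0.14 and -0.80 to 5.46, 5.90, 5.48 and 5.43, a rise of 5.90 ± 0.16. Its reads may be shared with other alpha class genes, which makes the assignment uncertain. Klf15, a Krüppel-like factor that directs amino acid and lipid metabolism under glucocorticoids, went from 1.03, 0.80, 0.82 and 1.14 to 6.09, 6.33, 6.08 and 6.06. The groups did not overlap, and the rise was 5.19 ± 0.12 against 2.42 with ethanol.

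The rest of the 15 largest rises, ordered by size, included channel and receptor genes. Scn3a, a voltage-gated sodium channel, rose by 5.84, Kcnd3, a potassium channel, by 5.75, and Npr1, the receptor for atrial natriuretic peptide, by 5.69. Cpm, a membrane carboxypeptidase, rose by 5.50, Fam13a by 5.50, and Inmt, an indolethylamine methyltransferase, by 5.40. Scn3a, Kcnd3, Cpm and Fam13a had day 0 means below 0 log2 CPM. On the log2(CPM + 1) scale these genes rose by 4.20, 3.77, 4.08 and 3.85. With ethanol, Scn3a, Fam13a and Inmt rose by 4.36, 3.18 and 3.72, and Npr1 and Cpm rose by 1.41 and 1.52.

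Among abundant genes (mean of at least 8 log2 CPM) the largest rise was that of Aldh1a1, a retinaldehyde dehydrogenase that makes retinoic acid. It stood at 7.61, 7.69, 7.64 and 7.63 at day 0 and at 11.29, 11.49, 11.24 and 11.26 with corticosterone. Each treated library was over 3 units higher, a rise of 3.68 ± 0.09, or 12.8-fold (limma adjusted p = 2.3e-22), while with ethanol the transcript fell by 0.71. Aldh1a7, a close paralog, rose by 5.63 ± 0.29 (4.53 on the log2(CPM + 1) scale), and reads of the 2 genes may not be fully separated. Serinc3, a membrane protein that also restricts retroviruses, went from 7.72, 7.75, 7.83 and 7.88 to 11.45, 11.11, 11.46 and 11.54. Treated and untreated libraries did not overlap, and the rise was 3.6 ± 0.08 (limma adjusted p = 5.9e-23) against 1.19 with ethanol. Tns1, which links integrins to actin, rose by 3.38, Castor2, an arginine sensor homologue, by 3.09, and Txnip, which restrains glucose uptake, by 2.75.

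The largest falls were in genes of the cornified envelope, which squamous epithelia such as epidermis make. Of 24 such genes listed, 6 were among the genes analysed here, and all 6 fell, by a median of 4.59. Sprr1a, a small proline-rich envelope protein, was at 9.90, 10.22, 10.19 and 10.08 log2 CPM at day 0 and at 3.14, 3.89, 3.48 and 3.57 with corticosterone. Every treated library was about 6 units or more below every day 0 library, and the fall was 6.57 ± 0.18 on the log2 scale, a 95.3-fold difference (limma adjusted p = 2.3e-21). Sprr2g went from 9.06, 9.25, 9.22 and 9.11 to 2.71, 3.86, 3.46 and 3.23, a fall of 5.84 ± 0.18. Treated replicate 4 was the highest treated library in both genes. Sprr2h, S100a7a, Sprr2a1 and Lor fell by 4.96, 4.22, 3.66 and 2.25, and 3 of 4 treated libraries had Sprr2h at the lowest value. On the log2(CPM + 1) scale Sprr2h, S100a7a, Sprr2a1 and Lor were at -1.47, -2.88, -1.28 and -1.44. The Sprr genes are a family of near copies, so reads may be shared between them. With ethanol the median was -4.04 and Sprr1a fell by 4.12, and Sprr1a was lower again by 2.46 with corticosterone (limma adjusted p = 1.1e-11).

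The Sprr1a promoter (chr3:92485852-92486131, minus strand, GRCm38.p6, from RefSeq) is shown because its gene had the largest fall named here and because it holds TGANTCA, the letters that AP-1 is known to bind. That letter pattern reads the same on both strands and occurs in 7.46% of all promoters and 5.02% of those of tested genes in the same window. Capitals mark the matches, which begin 146 and 116 bases before the start.
Sprr1a: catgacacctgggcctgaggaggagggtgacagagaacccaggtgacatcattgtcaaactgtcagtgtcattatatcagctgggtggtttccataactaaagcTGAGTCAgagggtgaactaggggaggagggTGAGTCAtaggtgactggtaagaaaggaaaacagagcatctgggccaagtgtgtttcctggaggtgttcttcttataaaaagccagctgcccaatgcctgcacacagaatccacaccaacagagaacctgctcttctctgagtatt

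Other large falls touched adhesion, signalling and the cycle. Siglecg, a sialic acid-binding lectin known from B cells, went from 7.15, 7.11, 6.90 and 6.97 to 2.43, 1.27, 0.87 and 0.97, a fall of 5.65 ± 0.27 (limma adjusted p = 3.5e-16). Treated replicate 1 was the highest of the treated libraries, and all were far below day 0. Ccnd1, the cyclin D1 that starts the cell cycle, went from 7.93, 7.70, 7.57 and 7.99 to 3.24, 2.63, 2.90 and 2.91. The groups did not overlap, and the fall was 4.88 ± 0.14 (limma adjusted p = 1.1e-20), beside a change of the same sign with ethanol of size 3.98. Itgb6, the epithelial integrin beta 6 that releases TGF-beta from its latent form, went from 4.90, 4.93, 4.81 and 4.91 to 0.52, 0.72, 0.70 and 0.65. No treated library reached day 0, and the fall of 4.24 ± 0.07 (limma adjusted p = 4.7e-25) stood beside 1.55 with ethanol. Fat2, an atypical cadherin, fell by 4.22 and S100a3 by 3.65, or by 3.06 and 2.64 on the log2(CPM + 1) scale. Dpp6 fell by 3.82, Inhba, the activin A subunit, by 3.62, Nav3 by 3.61, and Peg10, an imprinted gene, by 3.57. For Inhba, the ethanol fall was 3.34, and treated and ethanol libraries differed by -0.28 (limma adjusted p = 0.14). Csf1, the macrophage growth factor that epithelia also make, was the second largest fall among abundant genes, from 9.38 to 9.63 log2 CPM to 6.96 to 7.21.

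**Figure D2:**
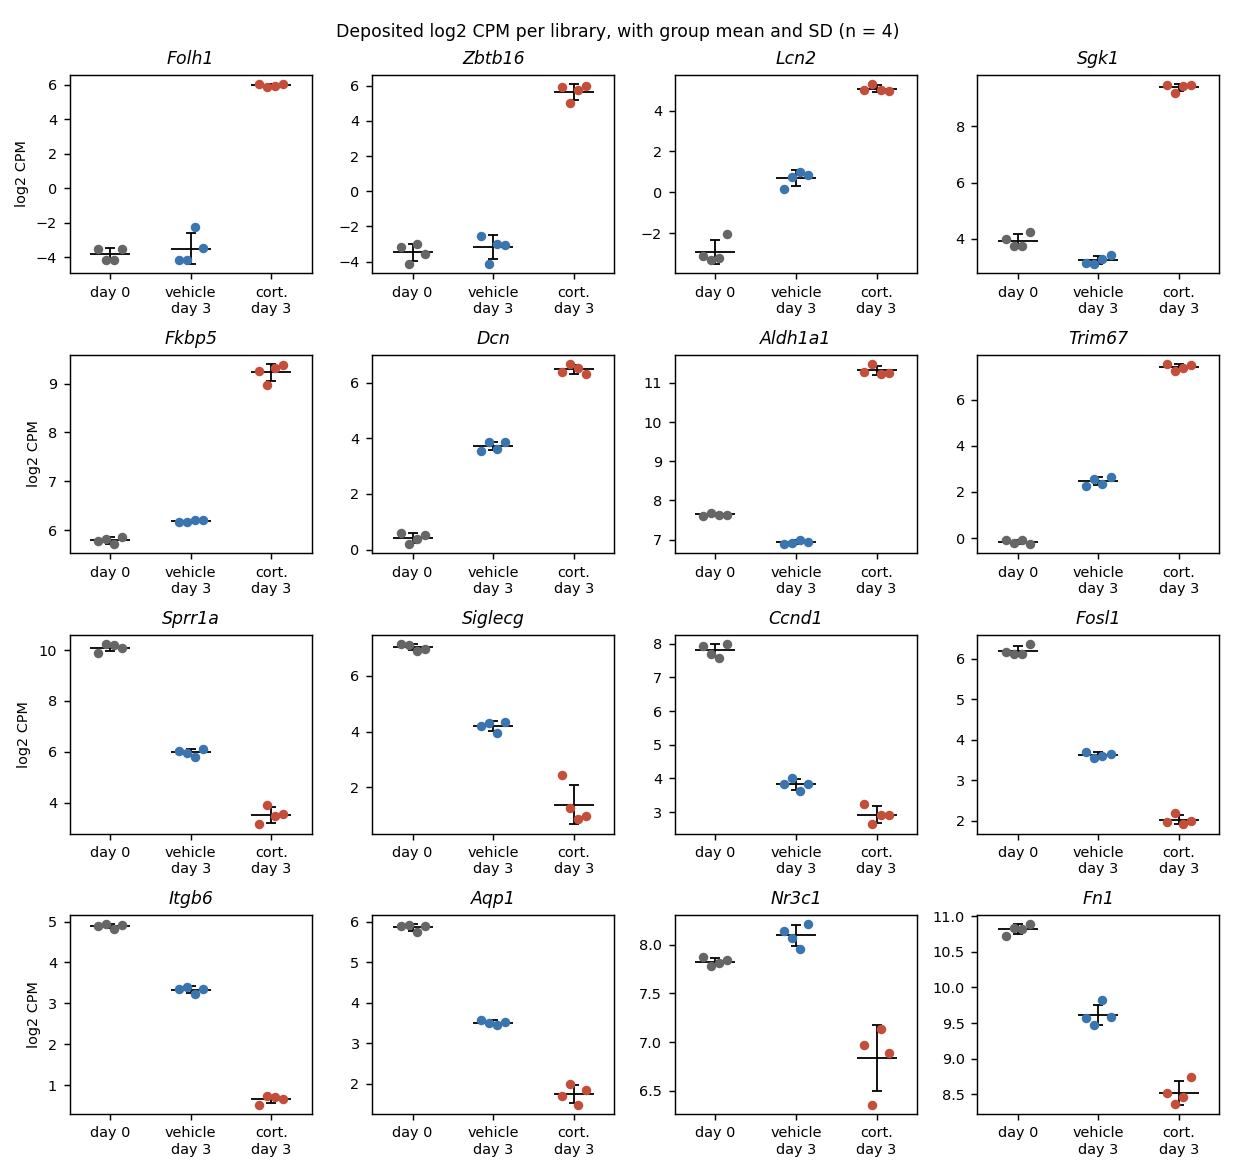
Each panel shows a gene's log2 CPM in the 4 libraries of day 0, vehicle day 3 and corticosterone day 3 (dots), with the group mean (bar) and SD (whisker, n = 4), on an axis that does not start at 0. In all 16 genes the treated libraries lie apart from the day 0 libraries, above them in the 8 genes of the top rows and below them in the 8 genes of the bottom rows.

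Genes of cell division fell as a block. Of 38 genes of mitosis and cytokinesis, all measured, 37 fell at least 2-fold and 1 rose, and the median change was -2.51, with a range from -2.92 to -2.01 over those that fell. The mean of the list per library was 7.17, 7.19, 7.20 and 7.14 log2 CPM at day 0 and 4.67, 4.83, 4.81 and 4.66 with corticosterone, with ethanol libraries between, at 5.71 to 5.92. No library of a group reached the next group. Kif20a, a kinesin of cytokinesis, went from 8.63, 8.67, 8.65 and 8.55 to 5.67, 5.68, 5.78 and 5.71, a fall of 2.92 ± 0.06 (limma adjusted p = 2.6e-23). Plk1, the polo kinase that drives entry into mitosis, went from 6.64, 6.75, 6.71 and 6.69 to 3.89, 3.93, 3.97 and 3.67, a fall of 2.83 ± 0.07. Top2a, the topoisomerase that untangles chromosomes, went from 9.39, 9.41, 9.35 and 9.28 to 6.73, 7.18, 6.92 and 6.59, a fall of 2.50 ± 0.08. All of these values separate the groups, and ethanol falls were 1.64, 1.65 and 1.49. Treated libraries were below ethanol libraries at day 3 for 37 of 38 genes, with a median difference of -1.09. The exception was Pttg1, securin, which rose by 0.77.

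The promoter of Cdc20, the activator of the anaphase-promoting complex that fell by 2.77, is shown as an example of the letters shared by mitotic genes (chr4:118437314-118437593, minus strand, GRCm38.p6, from RefSeq). Capitals mark TTTGAA, the cell cycle homology letters, 18 bases before the start and CCAAT boxes 53 and 8 bases before it, on either strand and without overlap. TTTGAA was found in 21 of 33 promoters (63.6%) of 31 matched mitotic genes, in 17.2% of all promoters and in 11.7% of those of tested genes. CCAAT was found in 25 of 33 (75.8%), in 36.1% and in 36.8%.
Cdc20: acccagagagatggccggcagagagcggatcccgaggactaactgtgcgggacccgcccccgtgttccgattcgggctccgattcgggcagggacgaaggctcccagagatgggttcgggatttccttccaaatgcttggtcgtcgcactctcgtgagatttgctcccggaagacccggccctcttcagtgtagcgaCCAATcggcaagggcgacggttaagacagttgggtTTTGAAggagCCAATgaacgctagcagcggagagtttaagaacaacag

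DNA replication genes fell less deeply. All 37 fell, 18 of them at least 2-fold, with a median of -0.99. Rrm2, the small subunit of ribonucleotide reductase, was at 7.57, 7.62, 7.59 and 7.57 at day 0 and at 5.07, 5.13, 5.22 and 5.17 with corticosterone, a fall of 2.44 ± 0.06 (limma adjusted p = 5.2e-22). The 4 values of each group lay apart from the other group. Tk1 and Tyms, which make thymidine nucleotides, fell by 2.25 ± 0.06 and 1.99 ± 0.05, and the helicase subunit Mcm5 fell by 1.42 ± 0.05. With ethanol 27 of the 37 fell and 2 rose, with a median of -0.49, and 34 were lower in treated than in ethanol libraries.

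Of 23 measured inhibitors of the cycle and p53 targets (24 listed), 14 rose, 3 fell and 6 were not called, with a median of 0.39, and without corticosterone replicate 4, 13 rose and 5 fell. Sesn1, a sestrin that restrains mTORC1, went from 6.33, 6.26, 6.22 and 6.19 to 9.18, 9.26, 9.18 and 9.14, a rise of 2.94 ± 0.06 (limma adjusted p = 7.5e-24). Treated libraries were nearly 3 units above day 0 and ethanol libraries lay at 8.30 to 8.32. Sesn2 rose by 1.47 ± 0.06 and Btg2, an antiproliferative gene, by 1.66 ± 0.07. Among kinase inhibitors, Cdkn1b (p27) rose by 1.46, Cdkn1a (p21) by 1.21 and Cdkn2b by 0.44, while Cdkn2c and Cdkn1c were not called. Plk2, a kinase that p53 also induces, fell by 2.99 ± 0.10. Mdm2, Bax, Gdf15 and Phlda3, which p53 is known to induce, were not called, at -0.11, -0.11, 0.00 and 0.12.

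Genes that build ribosomes fell. Of 32 ribosome biogenesis genes, 31 fell, 27 at least 2-fold, and the median change was -1.55. Ncl, nucleolin, was at 10.88, 10.84, 10.88 and 10.89 log2 CPM at day 0 and at 8.56, 8.65, 8.62 and 8.60 with corticosterone. All libraries of a group lay within 0.1 of each other, and the fall was 2.26 ± 0.04 (limma adjusted p = 3.1e-25). Mybbp1a, Rrp12 and Nop2 fell by 2.21, 1.93 and 1.55. With ethanol the median was -1.50, and treated libraries were lower than ethanol libraries for 15 genes. Rrs1, a ribosome assembly factor, was not called (-0.06), and it fell by 1.18 with ethanol.

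Of 78 cytosolic ribosomal protein genes, 77 fell, 19 at least 2-fold, with a median of -0.79. Corticosterone replicate 4 moved this value: the mean of the list was 9.04 to 9.10 log2 CPM at day 0 and 8.09, 8.77, 8.15 and 8.04 with corticosterone. Without that library all 78 fell and the median was -0.98, the value found with ethanol. Rplp0, a stalk protein, went from 11.79, 11.84, 11.82 and 11.81 to 10.87, 11.17, 10.80 and 10.82, a fall of 0.90 ± 0.06. Rps12 and Rpsa fell by 1.62 ± 0.10 and 1.63 ± 0.11, or by 1.79 and 1.79 without replicate 4.

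Chaperone genes fell more than they rose. Of 20 heat shock protein genes, 16 fell and 2 rose, with a median of -0.40. Hspd1, the mitochondrial HSP60, fell by 1.51 ± 0.04, and Hspa4, an HSP110 relative, fell by 1.15 ± 0.06. Hspa1a, the stress-inducible HSP70, fell by 2.22, and its ethanol value was -0.19 (limma adjusted p = 0.321). Hspb1 (HSP27) rose by 0.73. Of 19 genes of the unfolded protein response, 9 fell, 4 rose and 6 were not called, with a median of -0.18. Without corticosterone replicate 4, 12 fell and the median was -0.32, and without replicate 6 it was -0.11. Canx, Pdia6 and Hyou1, which fold proteins in the endoplasmic reticulum, fell by 0.81, 0.71 and 0.67. Herpud1, which takes part in degrading misfolded proteins, went from 5.52, 5.63, 5.67 and 5.59 to 6.96, 6.87, 7.0 and 6.88. It was higher in all treated libraries, a rise of 1.32 ± 0.09 (limma adjusted p = 7.1e-13).

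Genes of respiration rose. Of 70 nuclear-encoded genes of oxidative phosphorylation, 67 rose, 0 fell and 3 (Ndufa10, Ndufb7 and Uqcrc1) were not called, and the median change was 0.64. With ethanol 16 rose and 15 fell, with a median of 0.03, and all 70 were higher in treated than in ethanol libraries at day 3. The mean of the list was 6.35, 6.41, 6.41 and 6.4 log2 CPM at day 0 and 6.92, 7.52, 6.97 and 6.89 with corticosterone. Each treated library was above day 0 and replicate 4 was far above the other 3. Without it 63 rose and 1 fell, and the median was 0.52. Ndufa6, a complex I subunit, went from 5.39, 5.44, 5.39 and 5.39 to 6.99, 7.53, 7.10 and 6.99, a rise of 1.75 ± 0.09 (limma adjusted p = 2.0e-15), or 1.63 without replicate 4. Sdha, of complex II, went from 7.29, 7.34, 7.37 and 7.37 to 8.11, 8.44, 8.08 and 8.18, a rise of 0.86 ± 0.06. Cox5b, of complex IV, went from 6.37, 6.44, 6.32 and 6.32 to 7.46, 8.01, 7.40 and 7.39, a rise of 1.20 ± 0.09, or 1.05 without replicate 4. In all 3 genes the treated libraries lay above day 0.

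Of 25 genes of the tricarboxylic acid cycle and pyruvate entry, 21 rose and 3 fell, with a median of 0.45, and 25 of 25 were higher in treated than in ethanol libraries. Idh3a, a subunit of the NAD-dependent isocitrate dehydrogenase, went from 6.92, 6.97, 6.91 and 6.90 to 7.70, 7.84, 7.81 and 7.69, a rise of 0.84 ± 0.04 (limma adjusted p = 1.7e-16), with no overlap. Pcx, pyruvate carboxylase, rose by 1.01 ± 0.08, and the pyruvate carrier subunits Mpc1 and Mpc2 rose by 1.03 and 1.02. Cs, citrate synthase, Suclg2 and Dld fell by 0.24, 0.35 and 0.17. Of 24 genes that burn fatty acids in mitochondria, 19 rose and 2 fell, with a median of 0.53. Acaa2, Cpt1a, the carnitine palmitoyltransferase at the entry step, and Etfdh rose by 1.18, 1.02 and 0.61.

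Of 13 mitochondrially encoded genes listed, 11 were among the genes analysed here, and 10 rose, with a median of 1.07, while mt-Nd1 was not called (0.02). With ethanol the median was 0.61. mt-Co1 was at 13.43, 13.45, 13.42 and 13.46 log2 CPM at day 0 and at 14.74, 14.61, 14.68 and 14.60 with corticosterone, a rise of 1.22 ± 0.05 (limma adjusted p = 7.6e-18). The change was -0.00 with quantile normalization, which gives equal ranks the same value in every library. A very abundant gene that keeps its rank cannot change under that scaling, so this value does not test the rise. Under that scaling 9 of the 11 were called higher and 1 lower, and the median was 0.53.

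Of 21 genes of glycolysis and lactate export, 11 rose and 8 fell, the second near the 36.9% of all genes, with a median of 0.37. Ldhb, the lactate dehydrogenase subunit of oxidative tissues, went from 2.17, 2.39, 2.42 and 2.75 to 5.64, 6.16, 5.66 and 5.73, a rise of 3.36 ± 0.12 (limma adjusted p = 4.4e-19). Ldha, the subunit of glycolytic tissues, went from 9.11, 9.07, 9.16 and 9.12 to 7.29, 7.68, 7.41 and 7.36, a fall of 1.68 ± 0.08. The groups did not overlap in either gene, and ethanol changes were 2.25 and -1.22. Pkm, Gapdh, Pgk1, Pgam1 and Eno1, which act in the lower part of the pathway, fell by 1.28, 1.18, 1.15, 1.01 and 0.99, while Eno2, another enolase, rose by 0.62. Hk2, Pfkm and Pfkfb3, which act in the upper part, rose by 1.33, 1.04 and 0.99.

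Of 24 measured genes of the hypoxia response (26 listed), 12 rose, 4 fell and 8 were not called, with a median of 0.41. Ndrg1, a differentiation gene induced by low oxygen and by glucocorticoids, was at 7.99, 7.91, 7.84 and 7.94 log2 CPM at day 0 and at 11.20, 11.17, 11.05 and 11.18 with corticosterone. Every one of the treated libraries was over 3 units higher, a rise of 3.23 ± 0.06 (limma adjusted p = 3.9e-24), beside a change of the same sign with ethanol of size 1.79. Mxi1 rose by 1.07, and P4ha1 and Lox, which modify collagen, fell by 1.48 and 1.54. Adm, adrenomedullin, rose by 3.5, from a mean of -0.18 to 3.32, while with ethanol its change was -0.85.

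Lysosomal genes rose. Of 29 measured (30 listed), 27 rose and 1 fell, and the median change was 0.89. Mcoln1, the lysosomal calcium channel, went from 6.19, 6.1, 5.98 and 6.1 to 8.14, 8.15, 8.01 and 8.08, a rise of 2.0 ± 0.05 (limma adjusted p = 2.5e-21). Ctsl, cathepsin L, went from 7.73, 7.73, 7.71 and 7.75 to 9.34, 9.31, 9.3 and 9.28, a rise of 1.58 ± 0.05. Both groups were narrow and did not overlap. Hexa and Ctsa rose by 1.67 and 1.35, and Gabarapl1, an autophagosome protein, rose by 2.42. With ethanol the list had a median of 0.86, and treated libraries were higher than ethanol libraries for 9 genes and lower for 9. The promoter of Ctsd, cathepsin D, which rose by 0.93, is shown because it holds the CLEAR letters CACGTGAC, through which TFEB is known to act (chr7:142387798-142388077, minus strand, GRCm38.p6, from RefSeq). On both strands they occur in 7 of 28 promoters (25%) of 23 matched lysosomal genes, in 2.19% of all promoters and in 3.85% of those of tested genes. Capitals mark the matches, which begin 245 and 98 bases before the start.
Ctsd: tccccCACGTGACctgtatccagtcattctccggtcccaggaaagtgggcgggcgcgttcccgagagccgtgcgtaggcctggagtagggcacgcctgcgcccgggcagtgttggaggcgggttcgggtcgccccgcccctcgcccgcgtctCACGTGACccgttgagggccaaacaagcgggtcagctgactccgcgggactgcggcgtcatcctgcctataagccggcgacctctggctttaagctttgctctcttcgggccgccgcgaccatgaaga

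Of 23 measured genes of extracellular vesicle biogenesis (24 listed), 7 rose, 9 fell and 7 were not called, near the shares of all genes. The median was 0.06, and it was -0.03 without corticosterone replicate 4. The raft proteins Flot1 and Flot2 rose by 1.35 and 0.54. Sdcbp (syntenin) and Pdcd6ip (ALIX), which load cargo into exosomes, fell by 0.62 and 0.60.

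Cholesterol genes moved in opposite directions in the treated and the ethanol cells. Of 25 genes of cholesterol synthesis and uptake, 18 fell and 3 rose from day 0 to corticosterone day 3, with a median of -0.34, whereas 17 rose and 1 fell with ethanol, with a median of 0.50. Treated libraries were lower than ethanol libraries for 21 of 25 genes and higher for 0, with a median difference of -0.93. The mean of the list was 5.52, 5.48, 5.53 and 5.49 log2 CPM at day 0 and 5.13, 5.21, 5.08 and 5.06 with corticosterone, while ethanol libraries lay at 6.01 to 6.07. The 3 groups did not overlap. Cyp51, lanosterol demethylase, went from 6.71, 6.67, 6.65 and 6.63 to 5.87, 5.96, 5.85 and 6.02, a fall of 0.74 ± 0.05 (limma adjusted p = 8.2e-13). All treated libraries were below day 0, whereas ethanol libraries rose by 0.88. Idi1, which makes the isoprenoid unit of the pathway, fell by 1.04, beside a rise of 0.30 with ethanol. Tm7sf2, a sterol reductase, was an exception that rose by 1.69.

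Of 24 measured genes of fatty acid and triglyceride synthesis and storage (25 listed), 11 rose and 9 fell, near the shares of all genes, with a median of -0.02 that lay between -0.08 and 0.04 when 1 library was left out. Fasn, fatty acid synthase, Acaca and Acly, which make fatty acids from citrate, fell by 0.85, 0.75 and 0.59. Lpin1, a lipin that makes diacylglycerol and coactivates fat oxidation, went from 3.41, 3.49, 3.37 and 3.44 to 5.61, 5.15, 5.31 and 5.47, a rise of 1.96 ± 0.11 (limma adjusted p = 1.0e-14). Pnpla2, the triglyceride lipase ATGL, went from 5.42, 5.59, 5.58 and 5.58 to 7.10, 7.20, 6.85 and 7.04, a rise of 1.51 ± 0.09. The treated libraries were above day 0 in both, and ethanol rises were 1.56 and 0.47. Plin3 and Fads1 rose by 1.08 and 0.65.

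**Figure D3:**
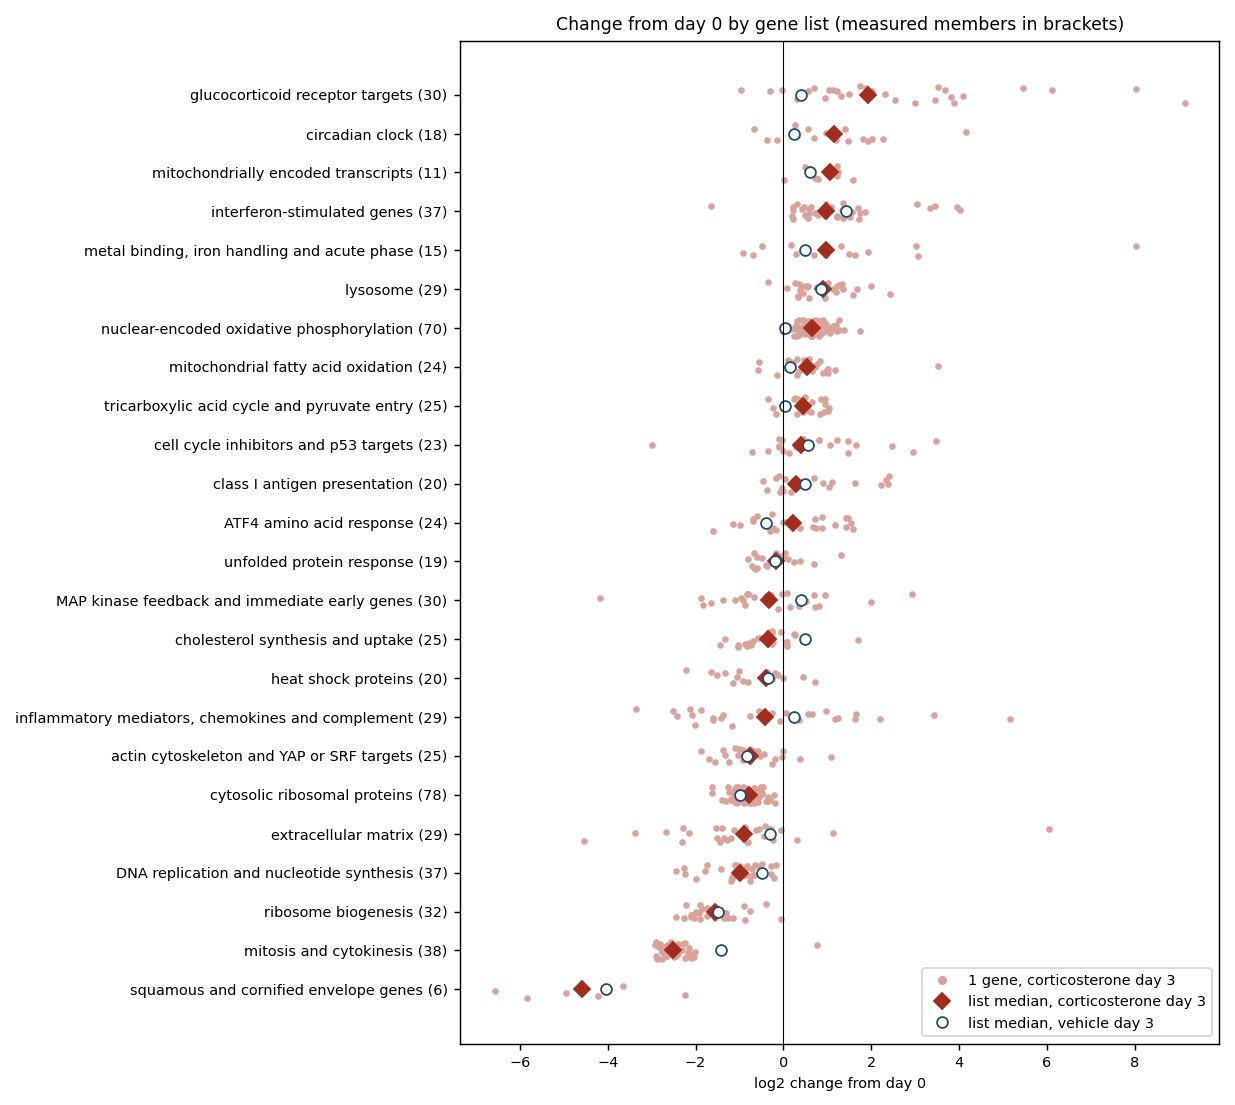
Each small dot is a measured member of a gene list, at its log2 change from day 0 to corticosterone day 3 (x axis), diamonds mark the list median, and open circles mark the median of the change from day 0 to vehicle day 3. Receptor targets lie furthest to the right of their vehicle median (1.92 against 0.40), mitosis genes lie to the left of theirs (-2.51 against -1.41), and cholesterol genes lie on the other side of 0 (-0.34 against 0.50).

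Interferon-stimulated genes were higher after 3 days. Of 37 measured (38 listed), 33 rose and 1 fell, 18 rose at least 2-fold, and the median change was 0.98. The mean of the list was 2.45, 2.33, 2.22 and 2.29 log2 CPM at day 0 and 3.47, 3.61, 3.48 and 3.59 with corticosterone, with ethanol libraries above both, at 3.77 to 3.87. With ethanol 34 rose, with a median of 1.43, and treated libraries were lower than ethanol libraries for 18 genes and higher for 5. Ifit3, an antiviral protein with tetratricopeptide repeats, went from 1.60, 1.15, 1.19 and 1.27 to 4.62, 4.97, 4.40 and 4.52, a rise of 3.33 ± 0.10 (limma adjusted p = 2.6e-20). Iigp1, an immunity-related GTPase, went from 0.21, -1.27, -0.66 and -0.80 to 3.21, 3.22, 3.48 and 3.39, a rise of 3.95 ± 0.19. Treated libraries were above day 0 in both, and ethanol rises were 3.00 and 3.94. On the log2(CPM + 1) scale the rise of Iigp1 was 2.72. Ifit3b rose by 3.45 (2.31 on that scale), but it is a near copy of Ifit3 and reads may be shared. Rsad2 (viperin) and Isg15, a ubiquitin-like modifier, were not called, at 0.19 and 0.22, although they rose by 2.92 and 1.38 with ethanol. Oasl1, a regulator of interferon production, fell by 1.64, or by 0.77 on the log2(CPM + 1) scale.

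The Ifit3 promoter (chr19:34583279-34583558, plus strand, GRCm38.p6, from RefSeq) is shown because its gene had the smallest limma p of the list and because it holds the core of the interferon-stimulated response element, GAAA repeated after a gap of 2 bases. Searched on both strands, it was found in 15 of 32 promoters (46.9%) of 28 matched genes of the list, in 3.28% of all promoters and in 2.89% of those of tested genes. Capitals mark the matches, which lie on the opposite strand and begin 156 and 122 bases before the start.
Ifit3: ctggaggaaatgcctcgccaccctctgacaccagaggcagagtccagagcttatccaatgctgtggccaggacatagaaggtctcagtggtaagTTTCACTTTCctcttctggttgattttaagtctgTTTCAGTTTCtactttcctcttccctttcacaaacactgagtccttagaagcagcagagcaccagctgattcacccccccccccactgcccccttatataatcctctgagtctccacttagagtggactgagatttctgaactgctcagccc

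Of 20 genes of class I antigen presentation, 11 rose and 3 fell, with a median of 0.28, and without corticosterone replicate 4, 10 rose and 5 fell. Tap2, a peptide transporter, went from 1.48, 1.64, 1.49 and 1.64 to 4.22, 3.98, 3.6 and 4.06, a rise of 2.40 ± 0.18 (limma adjusted p = 4.4e-12), and treated libraries were all above day 0. The immunoproteasome subunit Psmb9 rose by 2.39 (1.05 on the log2(CPM + 1) scale), and H2-K1 and H2-Q4 rose by 1.03 and 1.11, although reads of class I genes may be shared. With ethanol the median was 0.50, and treated libraries were lower than ethanol libraries for 9 genes and higher for 0.

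Inflammatory mediators fell more often than they rose. Of 29 measured (39 listed), 16 fell, 12 of them at least 2-fold, and 11 rose, with a median of -0.42. With ethanol 15 rose and 10 fell, and treated libraries were lower than ethanol libraries for 18 genes and higher for 6. Cxcl12, the chemokine SDF-1, went from 7.86, 7.84, 7.76 and 7.87 to 6.22, 6.31, 6.19 and 6.17, a fall of 1.61 ± 0.04 (limma adjusted p = 1.4e-21). The chemokines Cxcl1, Cxcl10 and Ccl2 fell by 2.08, 2.02 and 1.88, the cytokine Il33 by 2.51 (0.89 on the log2(CPM + 1) scale), Ptgs2 (cyclooxygenase 2) by 1.42 and the adhesion molecule Vcam1 by 1.60. Members that rose included C3, the central complement protein, which went from 1.59, 1.49, 0.74 and 1.85 to 6.33, 6.90, 6.47 and 6.57. Treated libraries all lay above day 0, and the rise was 5.15 ± 0.17, or 35.5-fold (limma adjusted p = 1.3e-19), beside a change of the same sign with ethanol of size 3.61. C1ra and C1s1, of the classical complement pathway, rose by 1.62 and 2.21 and were lower in treated than in ethanol libraries of day 3, at -0.21 (limma adjusted p = 5.0e-04) and -0.60 (limma adjusted p = 8.7e-05).

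Matrix genes fell, with decorin as a large exception. Of 29 measured extracellular matrix genes (38 listed), 23 fell, 14 of them at least 2-fold, and 3 rose, with a median of -0.90. Fn1, fibronectin, was at 10.72, 10.83, 10.82 and 10.89 log2 CPM at day 0 and at 8.52, 8.36, 8.46 and 8.75 with corticosterone, a fall of 2.29 ± 0.10 (limma adjusted p = 7.3e-17). Nid1, nidogen of the basement membrane, went from 8.30, 8.33, 8.36 and 8.31 to 5.64, 5.37, 5.73 and 5.87, a fall of 2.67 ± 0.08. Both were lower in every treated library, and ethanol falls were 1.20 and 1.81. Col12a1 and Col18a1 fell by 2.30 and 1.20. Dcn, decorin, a proteoglycan that binds collagen and TGF-beta, went from 0.60, 0.19, 0.38 and 0.54 to 6.4, 6.68, 6.54 and 6.3, a rise of 6.05 ± 0.10 (limma adjusted p = 1.6e-25). Treated libraries were nearly 6 units above day 0, and ethanol libraries lay between, at 3.56 to 3.85. Lama5 and Lamc1, laminin chains, rose by 1.12 and 0.30.

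Of 18 measured matrix proteases and inhibitors (22 listed), 12 fell and 4 rose, with a median of -0.32. Adamts5, an aggrecanase, went from 7.39, 7.31, 7.35 and 7.30 to 5.56, 5.55, 5.60 and 5.53, a fall of 1.78 ± 0.04 (limma adjusted p = 1.4e-22). Its treated libraries lay within 0.1 of each other, and ethanol cells fell by 1.17. Plau, the urokinase plasminogen activator, and Plaur, its receptor, fell by 1.07 ± 0.07 and 1.31 ± 0.07, against 0.93 and 1.16 with ethanol. Mmp15, a membrane metalloprotease, rose by 2.54.

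Of 30 measured MAP kinase feedback and immediate early genes (31 listed), 16 fell and 10 rose, with a median of -0.32. With ethanol 15 rose and 6 fell, with a median of 0.39, and treated libraries were lower than ethanol libraries for 22 of 30 and higher for 2. Fosl1, an AP-1 subunit of proliferating cells, went from 6.17, 6.11, 6.12 and 6.37 to 1.97, 2.19, 1.93 and 2.0, a fall of 4.17 ± 0.12 (limma adjusted p = 4.5e-21). Fos, another AP-1 subunit, went from 1.38, 1.76, 1.51 and 2.14 to 4.46, 4.71, 4.62 and 4.71, a rise of 2.93 ± 0.15. Day 0 and treated libraries lay apart in both genes in either gene, and ethanol changes were -2.56 and 3.28. Fosl2 fell by 1.82, and Errfi1, a feedback inhibitor of the EGF receptor, rose by 0.95. Etv4, Dusp4 and Dusp6, known as readouts of ERK activity, fell by 1.88 (1.19 on the log2(CPM + 1) scale), 1.65 and 0.83, whereas with ethanol their changes were 0.35, 0.43 and 0.12.

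Of 25 measured genes of the actin cytoskeleton and of YAP or SRF (27 listed), 19 fell and 2 rose, with a median of -0.77, against -0.82 with ethanol. Only 1 rose without day 0 replicate 5 or without corticosterone replicate 4 or 5. Ankrd1, a target of both YAP and SRF, went from 9.12, 9.00, 8.98 and 9.09 to 7.39, 7.69, 7.46 and 7.41, a fall of 1.56 ± 0.06 (limma adjusted p = 2.1e-18). No treated library reached day 0. Ajuba, Tagln2 and Tpm1 fell by 1.69, 1.04 and 0.93, and Actb, beta actin, by 1.37. Ccn1 fell by 1.24, whereas Ccn2, its relative, rose by 0.38.

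Clock genes rose. Of 18 measured (19 listed), 15 rose and 3 fell, with a median of 1.16, against 0.25 with ethanol. Per1, a negative arm gene that the receptor induces directly, went from 5.40, 5.37, 5.41 and 5.36 to 7.50, 7.30, 7.38 and 7.45, a rise of 2.02 ± 0.08 (limma adjusted p = 1.2e-17). Per2 went from 4.72, 4.56, 4.62 and 4.76 to 6.71, 6.33, 6.64 and 6.68, a rise of 1.92 ± 0.08. All treated libraries were above day 0, and ethanol changes were 0.00 and 0.23. Per3 rose by 1.13 and by 1.11 with ethanol. Clock, Nr1d1 and Arntl fell by 0.68, 0.37 and 0.14.

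Of 15 measured genes of metal binding, iron handling and acute phase (18 listed), 12 rose and 3 fell, with a median of 0.97. Cp, the copper ferroxidase ceruloplasmin, went from 6.42, 6.06, 6.24 and 6.48 to 9.39, 9.19, 9.33 and 9.36, a rise of 3.02 ± 0.07 (limma adjusted p = 5.9e-23), beside a change of the same sign with ethanol of size 2.49. Fth1, the ferritin heavy chain, went from 10.08, 10.15, 10.12 and 10.18 to 11.95, 12.46, 11.95 and 11.92, a rise of 1.93 ± 0.09, or 1.80 without replicate 4. Mt1, metallothionein 1, went from 7.55, 7.66, 7.75 and 7.73 to 9.02, 9.64, 8.99 and 9.01, a rise of 1.49 ± 0.11, or 1.34 without replicate 4. Treated libraries were above day 0 in all 3 genes, and replicate 4 stood above the other treated libraries in Fth1 and Mt1. Mt2 rose by 1.30, Steap4, a metalloreductase, by 3.06 (1.43 on the log2(CPM + 1) scale), and Tfrc, the transferrin receptor, fell by 0.92.

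Of 29 measured genes of glutathione and antioxidant defence (32 listed), 11 rose and 9 fell, shares near the 39.6% and 36.9% of all genes, with a median of -0.04. Leaving out 1 library moved the median between -0.14 and 0.01, and without corticosterone replicate 4, 11 rose and 13 fell. Gclc, the catalytic subunit that limits glutathione synthesis, went from 6.89, 6.76, 6.85 and 6.76 to 9.01, 8.89, 9.07 and 9.04, a rise of 2.19 ± 0.06 (limma adjusted p = 7.1e-22). Txnrd1, thioredoxin reductase, went from 9.43, 9.39, 9.38 and 9.42 to 8.12, 8.03, 8.12 and 8.09, a fall of 1.31 ± 0.04. Neither gene had overlapping groups in either, and ethanol changes were 0.73 and -0.65. Mgst1, Gstm1 and Gstm2 rose by 2.29, 1.83 and 2.22, and Nqo1 and Txn1 fell by 1.03 and 1.48.

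Retinoid genes included some of the largest rises. Of 16 measured (23 listed), 9 rose, 3 fell and 4 were not called, with a median of 0.46. Dhrs3, a retinaldehyde reductase, went from 3.57, 3.28, 3.53 and 3.01 to 8.11, 8.37, 7.88 and 7.96, a rise of 4.73 ± 0.10 (limma adjusted p = 5.0e-23). Crabp1, a cellular binding protein for retinoic acid, went from -3.13, -4.15, -2.95 and -3.08 to 3.35, 3.71, 2.80 and 3.21, a rise of 6.6 ± 0.25, or 3.27 on the log2(CPM + 1) scale. Treated libraries were far above day 0, and ethanol rises were 2.96 and 2.44. The retinoic acid receptor gene Rarb rose by 2.35, while Rara, Rxra and Rdh10 were among those not called.

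Of 24 genes of the ATF4 amino acid response, 12 rose and 10 fell, beside 39.6% and 36.9% of all genes, with a median of 0.21. Psat1, of serine synthesis, went from 9.11, 9.19, 9.23 and 9.11 to 7.52, 7.78, 7.49 and 7.41, a fall of 1.61 ± 0.05 (limma adjusted p = 1.1e-19), and it fell by 1.63 with ethanol. Atf5 went from 5.88, 5.83, 5.97 and 6.00 to 7.32, 7.61, 7.21 and 7.28, a rise of 1.43 ± 0.08. In neither gene did the groups overlap in either. Ddit3 (CHOP) rose by 1.59, as it did with ethanol (1.58). Treated libraries were higher than ethanol libraries for 20 of 24 genes and lower for 1, with a median difference of 0.49.

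**Figure D4:**
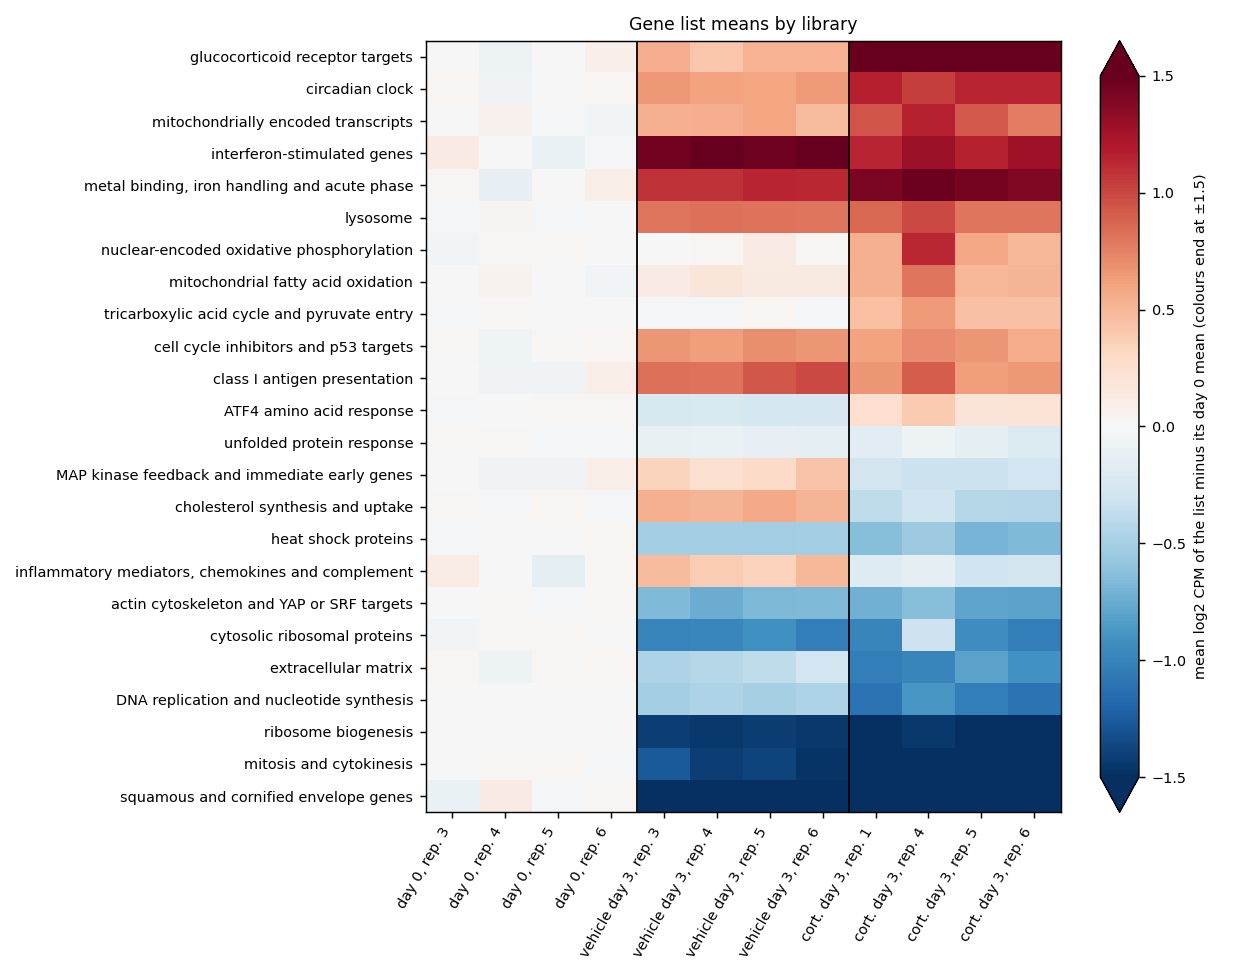
Rows are gene lists and columns are the 12 libraries of day 0, vehicle day 3 and corticosterone day 3, and colour gives the mean log2 CPM of the list minus its day 0 mean, with colours ending at 1.5 in either direction. Corticosterone replicate 4 is darker than the other treated columns for oxidative phosphorylation (7.52 against 6.89 to 6.97 log2 CPM) and paler for cytosolic ribosomal proteins (8.77 against 8.04 to 8.15).

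The label of the cells was checked against marker genes. Of 29 simple epithelial and junction genes listed, 21 were among the genes analysed here, and their summed level was 581 to 615 CPM at day 0 and 675 to 695 CPM with corticosterone. Classical epithelial markers were low at day 0, with means of -1.42 for Epcam, 0.80 for Krt8 and 1.79 for Cdh1. Among them 10 rose and 6 fell, with a median of 0.36. Cldn1, a tight junction claudin, went from 4.07, 3.89, 3.81 and 4.09 to 5.69, 5.75, 5.70 and 5.61, a rise of 1.72 ± 0.09 (limma adjusted p = 2.1e-15). Treated libraries all lay above day 0, and with ethanol its change was -0.18. F11r (JAM-A) and Elf3, an epithelial factor, rose by 1.38 and 1.66, and the keratins Krt19 and Krt18 fell by 2.88 (1.66 on the log2(CPM + 1) scale) and 1.10.

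Of 44 epididymal secretory, transport and identity genes listed, 16 were among the genes analysed here. Secreted lipocalins and beta-defensins on that list were not, whereas the lineage factors Pax8 and Pax2 were at means of 7.13 and 6.07 log2 CPM at day 0. Of the 16, 7 rose and 6 fell, near the shares of all genes, with a median of 0.20 that was -0.01 without corticosterone replicate 5. Aqp1, a water channel, went from 5.91, 5.92, 5.74 and 5.89 to 1.70, 2.01, 1.49 and 1.84, a fall of 4.11 ± 0.09 (limma adjusted p = 1.9e-23). Cftr, the chloride channel, went from 5.54, 5.46, 5.55 and 5.48 to 2.65, 2.25, 2.76 and 2.91, a fall of 2.86 ± 0.10. Both were far below day 0 in all treated libraries, and ethanol falls were 2.35 and 2.69. Spink8, a serine protease inhibitor secreted by the epididymis, went from -4.15, -4.15, -2.68 and -3.37 to 3.36, 4.08, 3.58 and 3.28, a rise of 7.17 ± 0.30, or 3.57 on the log2(CPM + 1) scale, against 2.11 with ethanol. Clu, clusterin, rose by 1.28.

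Markers of other cells were mostly not among the genes analysed here. Those measured were 7 of 13 fibroblast and stromal markers (summed level 141 to 145 CPM at day 0 and 165 to 199 CPM with corticosterone), 3 of 17 macrophage and leukocyte markers (34.3 to 35.9 and 34.6 to 49.2 CPM) and 6 of 12 endothelial markers (12.7 to 15 and 26.4 to 35.5 CPM). They were also 6 of 10 smooth muscle markers (122 to 138 and 75.1 to 107 CPM) and 3 of 16 sperm markers (101 to 122 and 69.7 to 72.4 CPM). Within the epididymis they were 2 of 7 basal cell markers (30.6 to 33.7 and 67.9 to 81.2 CPM) and 1 of 7 clear cell markers (0.123 to 0.242 and 0.791 to 1.35 CPM). The smooth muscle and sperm sums were mostly Smtn and Odf2, at day 0 means of 6.82 and 6.77 log2 CPM. Smtn and Odf2 fell by 0.80 and 0.72. The fibroblast and stromal sum changed its members. Dcn, which is also on that list, rose from a mean of 0.43 to 6.48 log2 CPM, and Postn fell from 6.53 to 5.09. Of the smooth muscle markers 3 rose and 2 fell, and of the sperm markers 2 rose and 1 fell. Ptprc, the pan-leukocyte marker, and Krt5 and Trp63, which define basal cells, were not among the genes analysed here. Csf1r, the receptor for CSF1, went from 1.56, 1.49, 1.27 and 1.11 to -2.20, -2.86, -2.74 and -1.77, a fall of 3.75 ± 0.29 (limma adjusted p = 6.8e-12), with every treated library below day 0. Of the fibroblast and stromal markers 3 rose and 3 fell, and of the endothelial markers 3 rose and 1 fell. Pdgfra, of stromal cells, and Kdr, of endothelium, rose by 3.1 and 3.21, and with ethanol Kdr fell by 2.11. On the log2(CPM + 1) scale, on which low genes change less, Csf1r was at -1.57, Pdgfra at 1.46 and Kdr at 2.09. Cd68 and Cd14, of macrophages, rose by 0.29 and 0.21, and without corticosterone replicate 4 the values were 0.19 and 0.09 and neither was called. Cd14 was also not called without day 0 replicate 5 (0.18) or 6 (0.21). In the paired fit to the 6 libraries of replicate numbers 4, 5 and 6, Cd68 was at 0.21 (limma adjusted p = 0.361), Cd14 at 0.27 (limma adjusted p = 0.107), the endothelial marker Eng at -0.39 (limma adjusted p = 0.133) and the basal marker Itga6 at 0.39 (limma adjusted p = 0.0645), against calls of -0.37 for Eng and 0.42 for Itga6 over all libraries. All 4 also lost their calls in those 6 libraries without pairing, and with the block over all libraries Eng alone lost its call (-0.32, limma adjusted p = 0.0712). In bulk RNA, fewer cells of a type and less RNA per cell cannot be told apart, and the part of these markers in the gene groups above was not tested.

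Further genes were taken by a rule on the ethanol change and on the difference between day 3 groups, both called, at least 2-fold and of opposite sign, so their pattern is a description. Tmtc2, Cavin2 and B4galnt3 were not called between day 0 and corticosterone, and the others named were. Among the 6 taken in which ethanol cells rose and treated cells were lower was Tmtc2, a mannosyltransferase of cadherins, at 3.44, 3.20, 3.41 and 3.33 log2 CPM at day 0 and 3.36, 3.15, 3.32 and 3.72 with corticosterone. The groups overlapped, and the change from day 0 was 0.05 ± 0.12 (limma adjusted p = 0.742), while ethanol libraries lay at 5.38 to 5.47. Olfm1, olfactomedin 1, went from 1.69, 1.71, 1.50 and 1.98 to 3.09, 3.18, 3.13 and 2.96, with ethanol at 4.71 to 4.87. It rose by 1.37 ± 0.09, less than the 3.06 seen with ethanol. Nrep was at 1.02, 0.93, 0.42 and 0.73 at day 0 and 1.52, 1.45, 1.22 and 0.63 with corticosterone, overlapping, with ethanol at 3.78 to 4.04. Its call of 0.43 ± 0.14 became -0.01 with quantile normalization and 0.41 in the 6 libraries of shared replicate numbers, where it was not called with pairing (limma adjusted p = 0.214) or without it (limma adjusted p = 0.224), and it was 0.31 and not called without day 0 replicate 5. The other 3 were Cd68, Hdac9, which rose by 0.70, and B4galnt3, at -0.27 (limma adjusted p = 0.0682), a value that was called without day 0 replicate 5 (-0.36) or corticosterone replicate 5 (-0.36).

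Among the 6 in which ethanol cells fell and treated cells were higher was Cavin2, a caveolar coat protein, at 7.24, 7.14, 7.19 and 7.23 at day 0 and 7.11, 7.22, 7.20 and 7.05 with corticosterone. These overlapped, at -0.06 ± 0.07 (limma adjusted p = 0.439), while ethanol libraries lay at 5.53 to 5.66. Gja1, the gap junction connexin 43, went from 6.77, 6.71, 6.65 and 6.63 to 5.83, 5.74, 5.90 and 5.72, a fall of 0.89 ± 0.10, against 2.71 with ethanol. Igfbp3, which binds insulin-like growth factors, went from 2.65, 2.82, 2.54 and 2.72 to 3.79, 3.97, 3.71 and 3.67. It rose by 1.10 ± 0.16, without overlap, and fell by 2.48 with ethanol. Lpin3 rose by 0.81 and Kcnip1, a potassium channel partner, fell by 1.85.

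In genes taken for moving the same way in both steps, the distance from day 0 was long. Those that rose were Dcn, Trim67, Kcnd3, Klf15, Fam13a and Phyhd1, with changes of 4.97 to 7.58 from day 0 to corticosterone day 3. Those that fell were Siglecg, Sprr1a, Fat2, Sprr2g, Dpp6 and Aqp1, with changes of -6.57 to -3.82. The rule itself placed all 12 further from day 0 than with ethanol.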

How the data were processed

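The authors deposited 1 table of log2 CPM for 28 libraries, and per the submitters' processing notes kallisto, edgeR 3.40.1, limma 3.54.0 and mm10 were named, without role or order. The annotation, scaling method and prior count are not given in the sources used here, and read counts were not used, so depth per library is unknown. The table held 13129 entries, of which 13128 had a symbol and were tested. Libraries were grouped by their labels. limma 3.58.1 (R 4.3.3, statmod 1.5.0) was fitted to the deposited log2 values of all 28 libraries with 1 mean per group (21 residual degrees of freedom), an intensity trend and Benjamini-Hochberg adjustment. A filter of log2 CPM above 0 in at least 4 libraries removed 0 genes. Tables and figures were made with Python 3.11.15, pandas 2.3.3 and numpy 2.4.6.

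The genes named were the 15 largest rises and falls (mean of at least 1 log2 CPM, groups apart, predicted models passed over), the 6 largest each way with a mean of at least 8, up to 4 members of each list with the smallest p, a fixed set of receptor genes, and up to 6 genes for each direction of the vehicle and hormone steps. Some genes that this rule takes are not reported here. Other list members were named after their values were seen. The members and lists were chosen with earlier results of these data known. On simulated data with 13128 genes in this comparison, 16 of 50 genes changed by 0.25 (log2), 40 of 50 by 0.5, 46 of 50 by 1 and 47 of 50 by 2 were recovered. The simulation changed 200 genes in all and gave a gene the same spread in every group. In the data far more genes were called and the treated libraries spread more, so these recoveries check the fit and are not rates for this comparison. Replicate numbers 4, 5 and 6 occur in both groups. Over 10952 genes, deviations of libraries with the same number had correlations of 0.208, 0.115 and 0.121. Those of libraries with different numbers ranged from -0.201 to 0.223, and the random block over all libraries gave a correlation of 0.017. The main fit held no pairing, and the numbers entered as a block only in the alternatives. Alternatives covered scaling, pseudocount, filter, libraries in the fit, variance moderation, library weights, the replicate block, thresholds and leaving out each library. The unpaired fit to the 6 libraries of shared numbers was added after seeing the data.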

Additional observations from a re-analysis of the deposited data

Results flagged for a closer look

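In 170 groups of 4 libraries examined, 15 had a library far from the other 3, and chance alone flags about 1 in 20 groups. Corticosterone replicate 4 accounted for 9 of them. In log2 CPM it was at 9.19 for Sgk1 (9.43 to 9.47 in the other treated libraries) and at 6.77 for Klf9 (7.14 to 7.20), both the lowest of their group. It was the highest treated library for Gsta3, at 5.90 (5.43 to 5.48), for Klf15, at 6.33 (6.06 to 6.09), for Cox5b, at 8.01 (7.39 to 7.46), for Fth1, at 12.46 (11.92 to 11.95), and for Mt1, at 9.64 (8.99 to 9.02). Its list mean was 7.52 for oxidative phosphorylation (6.89 to 6.97) and 8.77 for cytosolic ribosomal proteins (8.04 to 8.15).

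The other 6 were at day 0. Replicate 6 was at -2.07 for Lcn2 (-3.33 to -3.15), replicate 5 at 5.74 for Aqp1 (5.89 to 5.92), and replicate 4 at 5.44 for Ndufa6 (5.39 in the others) and at -4.15, the lowest value of the table, for Crabp1 (-3.13 to -2.95). Replicate 3 was at 5.42 for Pnpla2 (5.58 to 5.59) and at 6.35 for the oxidative phosphorylation mean (6.4 to 6.41). The entry without a gene symbol, used in no comparison, held 0.0673 to 0.0698% of CPM with corticosterone and 0.0267 to 0.0289% at day 0.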

How the results depend on the processing

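Over 24 alternatives the number of genes higher with corticosterone ranged from 4080 to 5392 and lower from 3833 to 4966, apart from the 2-fold threshold (1770 and 1330). With each library left out in turn the counts were 5022 to 5307 higher and 4684 to 4865 lower. For vehicle day 3 against day 0 they were 4598 to 4637 and 4107 to 4167, and for corticosterone against vehicle at day 3 they were 2808 to 3102 and 3088 to 3522. With the replicate block they were 5103 and 4820 (fixed, all libraries), 5206 and 4857 (random), and 4080 and 3833 in the 6 libraries of shared numbers, where the fit without pairing gave 4102 and 3837. Cd68, Cd14, Eng, Itga6 and Nrep lost their calls in those 6 libraries with and without pairing. With the block over all libraries Eng (-0.32) lost its call, and no other gene named here changed call under any of the block fits.

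Of 196 named genes, 187 kept direction and call in every alternative tried. With quantile normalization mt-Co1 (-0.00) and Nrep (-0.01) changed sign, and the cause was not tested. That scaling cannot show a change in a gene that keeps its rank, as a gene as abundant as mt-Co1 may. Eng also lost its call without day 0 replicate 4, 5 or 6 or corticosterone replicate 1 or 5, at -0.37 to -0.28, and Tagln without day 0 replicate 5 (0.86), corticosterone replicate 4 (0.85) or corticosterone replicate 5 (0.94). Of 41 list medians, 6 changed sign in some alternative: fatty acid and triglyceride synthesis, glutathione, vesicle biogenesis, epididymal, smooth muscle and sperm genes. Depth could not be assessed from log2 CPM, and genes near -4.15 have changes that depend on the prior count.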
